A study of Mus musculus with 11 samples.

Results

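The 7 genes described here encode the core of MHC class II antigen presentation: Cd74, H2-Aa, H2-Ab1, H2-Eb1, H2-DMa, H2-DMb1 and Ciita. They were taken by gene symbol from a table of read counts for 54532 genes, and each symbol had a single row. RNA came from tissue dissected as LHb, the lateral habenula, of BALB/c mice 3 months old. In the CAIA groups, mice of a collagen antibody-induced arthritis model had received 50 mg/kg of a mixture of 5 monoclonal antibodies to type II collagen by intraperitoneal injection and, 3 days later, 1 mg/kg of lipopolysaccharide (LPS) by the same route. Ctrl mice had received the vehicle. There were 3 female CAIA, 3 female Ctrl, 3 male CAIA and 2 male Ctrl libraries. All CAIA mice received both the antibodies and LPS, so the effects of the 2 cannot be told apart. The study set out to compare the habenula of arthritic and control mice in relation to depression that accompanies rheumatoid arthritis.

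Class II molecules are pairs of an alpha and a beta chain that carry peptides from the endosome to the cell surface, where CD4 T cells read them. The invariant chain, encoded by Cd74, escorts new class II pairs and fills their groove until proteases degrade it, and the DM heterodimer then exchanges its last fragment for an antigen peptide. The coactivator encoded by Ciita switches these genes on together, mostly in dendritic cells, B cells and macrophages. In brain, class II is mainly found on macrophages and dendritic cells of the meninges, choroid plexus and perivascular spaces, and resting microglia carry little.

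The libraries held 25317306 to 29565006 counts each. Values are CPM, read counts relative to the library size after TMM scaling, in which 1 read was worth 0.0341 to 0.0395 CPM. A gene was called where edgeR's quasi-likelihood test gave an adjusted p under 0.05 over all 19619 genes tested. Over both sexes that held for 0.596% of the genes tested, and for 0.576% with the lower level in CAIA. In females it held for 0.260%, in males for 0% and for the difference between the sexes for 0%. The last 2 comparisons had 1104 and 807 genes at an unadjusted p under 0.05, and DESeq2 called 71 and 2. By chance alone a share of 0.05 of the 19619 genes would have such an unadjusted p, and both edgeR counts lie near that share. Markers of the lateral habenula summed to 1378 to 1649 CPM in CAIA and 1278 to 1722 CPM in Ctrl libraries, and those of the adjoining medial habenula to 1443 to 1819 CPM in CAIA and 1358 to 1838 CPM in Ctrl libraries. Choroid plexus RNA, led by the transthyretin gene Ttr, differed between the groups and is given beside the results below. The labels do not say that the libraries came from separate animals, so the p-values reflect only how these libraries varied, which may be technical.

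Cd74 fell in CAIA tissue, with each of the 6 CAIA libraries below each of the 5 Ctrl libraries, and it was the only one of the 7 genes called. The CAIA females had 2.03, 2.41 and 2.20 CPM, against 4.67, 5.07 and 4.43 CPM in the Ctrl females. The CAIA males had 1.70, 2.91 and 2.77 CPM, against 6.06 and 3.55 CPM in the Ctrl males. The groups did not overlap in either sex, and the widest spread within a group was between the 2 Ctrl males. Over both sexes Cd74 averaged 2.33 ± 0.456 CPM in CAIA (SD, n = 6) and 4.75 ± 0.919 CPM in Ctrl libraries (SD, n = 5). The log2 fold change was −1.03 ± 0.18 (SE, 95% interval −1.40 to −0.65), a fold of 0.491, with an adjusted p of 0.0145 in edgeR. Every CAIA library lay below every Ctrl library for 1.01% of the genes tested. Cd74 lies on chromosome 18 at 60803848 to 60812652 on the plus strand (GRCm38) and is protein coding.

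The estimates for Cd74 were close in females and males. Its log2 fold change was −1.09 ± 0.24 in females (SE, adjusted p = 0.0889) and −0.96 ± 0.26 in males (SE, adjusted p = 0.562), neither of which passed the threshold in edgeR. In females Cd74 was called by DESeq2 (adjusted p = 0.00391), by edgeR with no filter on low counts (adjusted p = 0.000330) and by edgeR without male CAIA replicate 1 (adjusted p = 0.0361). In males it was called by edgeR with no filter (adjusted p = 0.0126), and not by DESeq2 (adjusted p = 0.116). With no filter edgeR called 452 genes in females and 423 in males, against 51 and 0 with the filter. The fit without male Ctrl replicate 3 leaves 1 male Ctrl library, so its result in males is not given. The female effect minus the male effect was −0.13 ± 0.35 (SE, 95% interval −0.88 to 0.62, adjusted p = 0.989), an interval that leaves room for a sizeable difference. The call over both sexes rested on few reads, 384 in the 6 CAIA libraries and 638 in the 5 Ctrl libraries. Without female CAIA replicate 1 the adjusted p was 0.0555, without female CAIA replicate 3 it was 0.0538 and without male Ctrl replicate 1 it was 0.0975, with log2 fold changes of −0.995, −1.03 and −0.82 in that order. In this bulk tissue, fewer cells of a type and less RNA per cell cannot be told apart.

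**Figure D1:**
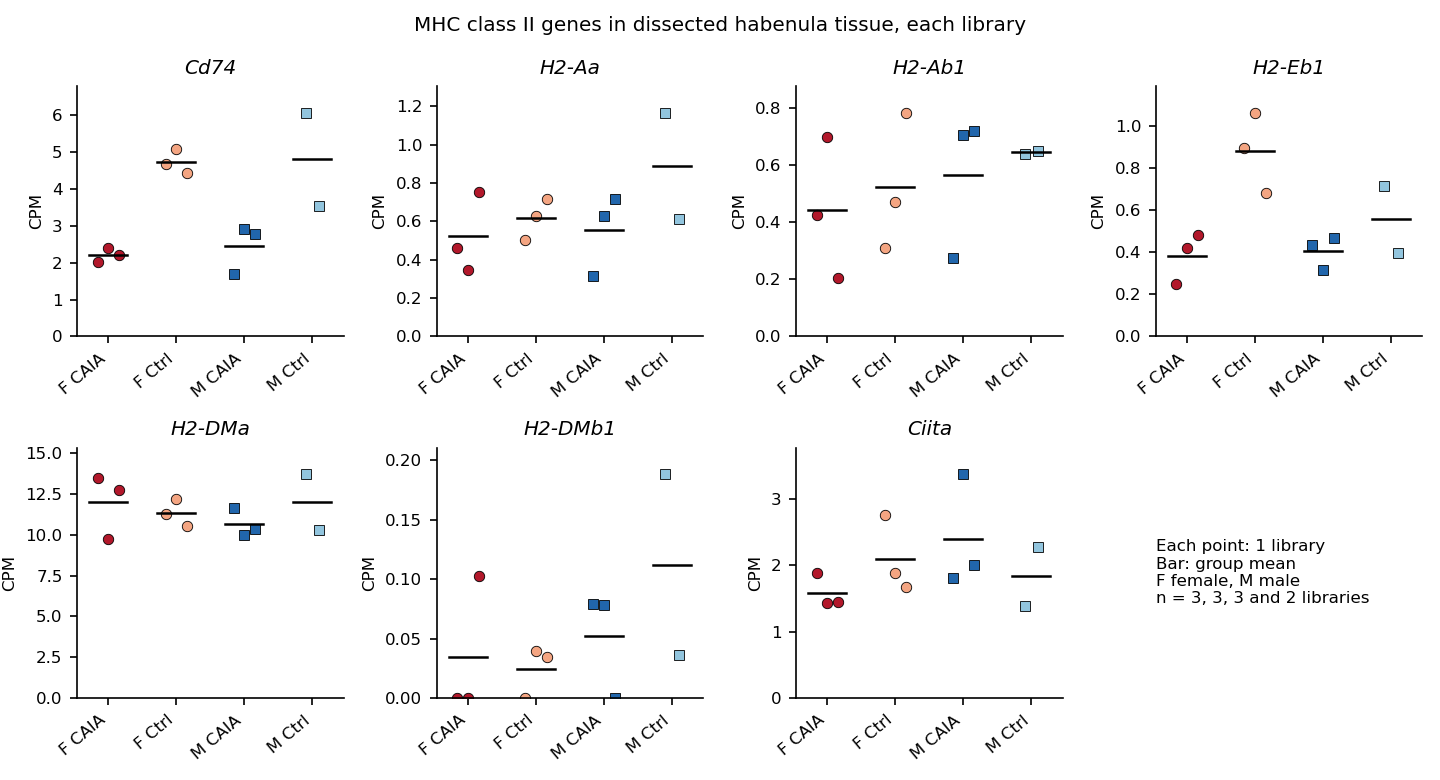
Level of each of the 7 class II genes in CPM (vertical axes, each from 0) in the 11 libraries, by sex and treatment. Points are libraries and bars are group means. Cd74 separates CAIA from Ctrl libraries in both sexes, H2-Eb1 does so in females, and the other genes overlap within each sex.

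The classical alpha and beta chains were close to the limit of what these libraries could measure, and none of the 3 was called. In GRCm38 they lie in the H2 region of chromosome 17, H2-Ab1 at 34257689 to 34269419 and H2-Eb1 at 34305867 to 34316674 on the plus strand and H2-Aa at 34282744 to 34287823 on the minus strand, and all 3 are protein coding. H2-Eb1, the beta chain of the I-E molecule, came nearest. The CAIA females had 0.249, 0.419 and 0.481 CPM of H2-Eb1, against 0.895, 1.06 and 0.681 CPM in the Ctrl females. The CAIA males had 0.434, 0.314 and 0.467 CPM, against 0.715 and 0.398 CPM in the Ctrl males. The female groups did not overlap and the male groups did. The log2 fold change over both sexes was −0.82 ± 0.31 (SE, 95% interval −1.47 to −0.16), with an adjusted p of 0.593 in edgeR (0.0187 before adjustment). It was −1.18 ± 0.40 in females and −0.45 ± 0.46 in males, and the difference between these was −0.73 ± 0.62 (SE, adjusted p = 0.978). In females, every CAIA library lay below every Ctrl library for 6.39% of the genes tested, and in males for 8.51%, so the separation of H2-Eb1 in 1 sex is a weak mark.

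H2-Aa and H2-Ab1, the alpha and beta chains of the I-A molecule, overlapped between CAIA and Ctrl in each sex. H2-Aa had 0.462, 0.349 and 0.756 CPM in the CAIA females, against 0.506, 0.628 and 0.715 CPM in the Ctrl females. It had 0.316, 0.628 and 0.719 CPM in the CAIA males, against 1.17 and 0.615 CPM in the Ctrl males. The Ctrl male at 1.17 CPM stood highest and was also the Ctrl library with the most Cd74. The log2 fold change of H2-Aa over both sexes was −0.46 ± 0.32 (SE, 95% interval −1.14 to 0.23, adjusted p = 0.901). H2-Ab1 had 0.427, 0.698 and 0.206 CPM in the CAIA females, against 0.311, 0.471 and 0.783 CPM in the Ctrl females. It had 0.276, 0.707 and 0.719 CPM in the CAIA males, against 0.640 and 0.651 CPM in the Ctrl males. Its spread within a group exceeded the difference between groups, at a log2 fold change of −0.21 ± 0.38 (SE, 95% interval −1.03 to 0.60, adjusted p = 0.967). Both intervals run from about the estimate of Cd74 to above 0, so these data set no close bound on either gene.

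The partner of H2-Eb1, the I-E alpha chain, is listed as H2-Ea-ps, a polymorphic pseudogene in the reference annotation, because the C57BL/6 reference strain lacks a working copy and strains such as BALB/c have one. H2-Ea-ps had 0.320, 0.802 and 0.378 CPM in the CAIA females, against 1.01, 0.589 and 0.749 CPM in the Ctrl females. It had 0.355, 0.667 and 0.216 CPM in the CAIA males, against 1.05 and 0.760 CPM in the Ctrl males. The male groups did not overlap and the female groups did. In males 8.51% of the genes tested had every CAIA library below every Ctrl library, so this separation is a weak mark. The log2 fold change of H2-Ea-ps over both sexes was −0.89 ± 0.35 (SE, adjusted p = 0.632). The reads had been aligned to GRCm38, whose C57BL/6 sequence carries the b haplotype of H2, whereas BALB/c carries the d haplotype. Reads from polymorphic class II exons may therefore be undercounted in all 11 libraries, which was not tested.

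Class II promoters are known to share an X box, bound by RFX and CREB proteins, and a Y box, bound by NF-Y, at a fixed spacing on which the Ciita protein assembles. Promoter windows from RefSeq (GRCm38.p6, 300 bases each, 250 before and 50 after the transcript start) were matched for 4 of the 7 genes: H2-Aa, H2-Eb1, H2-DMb1 and H2-DMa, the last with 2 windows. The stretch that holds the boxes is printed 5′ to 3′ on the coding strand for the 3 with a match and for H2-DMb2, the near-identical neighbour of H2-DMb1. Capitals mark TGATTGG (Y box), AACNNATG (the end of the X box) and, in H2-Aa, TGACGTCA (the cyclic AMP response element in the X2 position). These are chr17:34287842-34287922 on the minus strand for H2-Aa and chr17:34305753-34305837, chr17:34153074-34153159 and chr17:34145103-34145188 on the plus strand for H2-Eb1, H2-DMb1 and H2-DMb2.
H2-Aa: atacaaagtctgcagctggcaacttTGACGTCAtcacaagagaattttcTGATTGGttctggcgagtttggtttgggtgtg
H2-Eb1: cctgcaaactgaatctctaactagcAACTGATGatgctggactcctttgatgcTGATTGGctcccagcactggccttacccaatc
H2-DMb1: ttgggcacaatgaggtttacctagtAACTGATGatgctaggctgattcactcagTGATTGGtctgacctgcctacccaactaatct
H2-DMb2: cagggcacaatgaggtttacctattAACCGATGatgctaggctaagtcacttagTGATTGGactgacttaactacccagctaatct

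The Y box began 50 bases before the transcript start in H2-Aa, 61 in H2-Eb1, 63 in H2-DMb1 and 92 in H2-DMb2, counted from the table's start. The X box end and the Y box were 20 bases apart in H2-Eb1 and 21 apart in H2-DMb1 and in H2-DMb2. Searched on both strands, TGATTGG was present in 7.80%, AACNNATG in 8.86% and TGACGTCA in 1.79% of 32817 promoter windows of this length, and the motifs did not overlap in the windows printed. AACNNATG followed by TGATTGG within 30 bases on the same strand was present in 16 windows (0.0488%), and 5 of these were of class II genes: H2-Eb1, H2-DMb1, H2-DMb2, H2-Eb2 and H2-Ob. The letters were chosen after the class II windows had been read, so this share is a description. Neither H2-DMa window held any of the 3 motifs, and the genes with the paired boxes include both H2-Eb1, at a log2 fold change of −0.82 ± 0.31 (SE), and H2-DMb1, which was too low to test.

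Neither gene of DM, which loads peptide onto class II, was called. H2-DMa and H2-DMb1 are protein coding and lie on the plus strand of chromosome 17, at 34119541 to 34139101 and 34153072 to 34160230. H2-DMa, the DM alpha chain, had 13.4, 9.77 and 12.7 CPM in the CAIA females, against 11.3, 12.2 and 10.5 CPM in the Ctrl females. It had 11.6, 9.97 and 10.4 CPM in the CAIA males, against 13.7 and 10.3 CPM in the Ctrl males. The groups overlapped throughout, and the log2 fold change over both sexes was −0.04 ± 0.11 (SE, 95% interval −0.28 to 0.19, adjusted p = 0.977). H2-DMa had the narrowest interval of the 6 genes tested, and that interval lies above the one of Cd74. Its exons share 360 bases, 10.4% of their length, with Brd2 on the opposite strand, a chromatin reader gene at 273 ± 10.3 CPM in CAIA (SD, n = 6) and 278 ± 10.96 CPM in Ctrl libraries (SD, n = 5). The strand setting of the counting is not given, so H2-DMa reads and Brd2 reads from the shared bases cannot be told apart.

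H2-DMb1, a DM beta chain, had 7 reads in all 6 CAIA libraries and 8 in all 5 Ctrl libraries, and it did not pass the filter on low counts. The CAIA females had 0, 0 and 3 reads and the CAIA males 2, 2 and 0, against 0, 1 and 1 in the Ctrl females and 5 and 1 in the Ctrl males. Per library, a count of 0 allows up to 3 reads, which is 0.102 to 0.118 CPM and covers counting error only. Its near-identical neighbour H2-DMb2, whose transcript was 96.0% identical over 1045 aligned bases, had 30 reads in CAIA and 23 in Ctrl libraries, and reads could have been split or lost between the pair.

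Ciita, the class II coactivator, was at nearly the same mean level in CAIA and Ctrl libraries. It had 1.89, 1.43 and 1.44 CPM in the CAIA females, against 2.76, 1.89 and 1.67 CPM in the Ctrl females. It had 1.81, 3.38 and 2.01 CPM in the CAIA males, against 1.39 and 2.28 CPM in the Ctrl males. The groups overlapped in both sexes, and male CAIA replicate 2 stood above every other library. Ciita averaged 1.99 ± 0.718 CPM in CAIA (SD, n = 6) and 2.00 ± 0.536 CPM in Ctrl libraries (SD, n = 5), a log2 fold change of −0.01 ± 0.22 (SE, 95% interval −0.49 to 0.47, adjusted p = 0.999). It was −0.41 ± 0.30 in females and 0.38 ± 0.33 in males, with a difference of −0.79 ± 0.45 (SE, 95% interval −1.75 to 0.17, adjusted p = 0.978). Ciita is protein coding and lies on chromosome 16 at 10480059 to 10528418 on the plus strand. Its exons share 329 bases with Dexi on the opposite strand, 3.45% of their length, and Dexi had 47.5 ± 2.50 CPM in CAIA (SD, n = 6) and 48.5 ± 8.73 CPM in Ctrl libraries (SD, n = 5). Per kilobase of exon Dexi had 14.2 CPM in CAIA and 14.5 CPM in Ctrl libraries, against 0.209 and 0.210 CPM for Ciita. With the strand setting not given, Ciita reads and Dexi reads from the shared bases cannot be told apart. The values counted for Ciita may thus include Dexi reads, which was not tested.

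**Figure D2:**
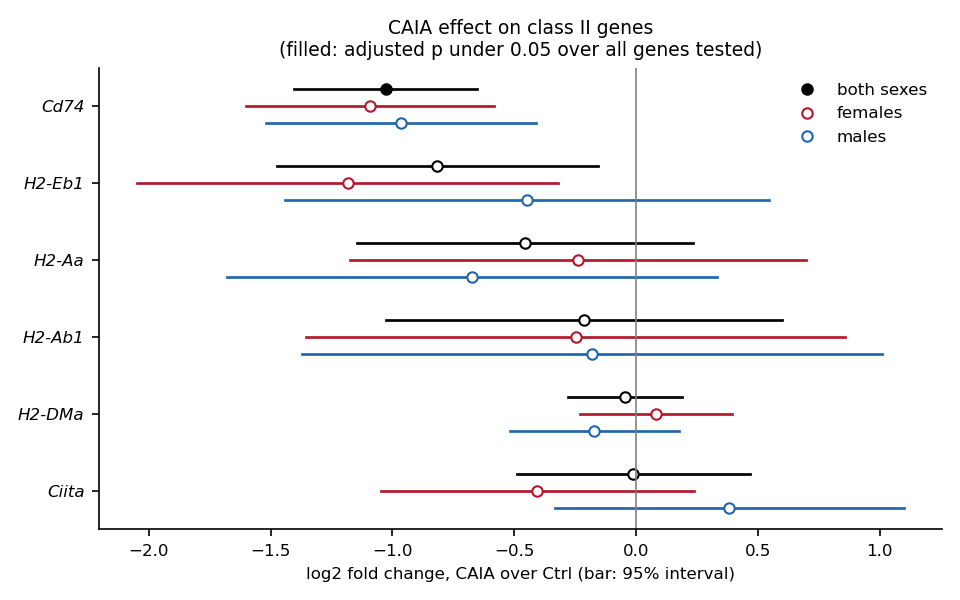
Log2 fold change of CAIA over Ctrl (horizontal axis) for the 6 class II genes tested, over both sexes and in each sex. Points are edgeR estimates, bars 95% intervals, and the filled point marks an adjusted p under 0.05. The interval of Cd74 over both sexes runs from −1.40 to −0.65, and that of H2-DMa from −0.28 to 0.19.

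Over both sexes all 6 genes tested had a negative log2 fold change, with 1 called and a median of −0.33. Over all genes tested the median was 0.00, 50% of the values were negative and 0.596% of the genes were called. Ciita and H2-DMa lay near 0, at −0.01 ± 0.22 and −0.04 ± 0.11 (SE), and changed sign under 8 and 4 of 20 alternatives. In females 5 of the 6 were negative, with H2-DMa positive, and in males 5 were negative, with Ciita positive. The edgeR test called none of them in either sex alone, and DESeq2 called Cd74 in females. Per kilobase of exon, H2-DMa was the highest of the 7 genes in every library, at 3.28 ± 0.446 CPM per kilobase in CAIA (SD, n = 6) and 3.36 ± 0.401 in Ctrl libraries (SD, n = 5). Cd74 was next in every library, at 1.39 ± 0.271 CPM per kilobase in CAIA and 2.83 ± 0.547 in Ctrl libraries. H2-Eb1, Ciita, H2-Ab1 and H2-Aa followed, with means of 0.142 to 0.209 CPM per kilobase in CAIA and 0.191 to 0.386 in Ctrl libraries, and neighbours in that order changed places between libraries. H2-DMb1 was lowest in every library. Brd2, which shares exon bases with H2-DMa on the opposite strand, had 34.9 CPM per kilobase in CAIA and 35.5 in Ctrl libraries. The level and rank of H2-DMa may therefore include Brd2 reads, and reads of the polymorphic chains may be undercounted. Neither was tested.

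Ttr, which encodes the thyroid hormone carrier transthyretin and is the most abundant choroid plexus transcript, had a larger fold change than any of the 7 genes. Its level was 29.2, 27.0 and 29.8 CPM in the CAIA females, against 1469, 1996 and 3289 CPM in the Ctrl females. The CAIA males had 65.6, 1188 and 305 CPM, against 2704 and 2577 CPM in the Ctrl males. The log2 fold change of Ttr was −4.32 ± 0.71 (SE, adjusted p = 0.0620), and the CAIA males were spread over a range that reached almost to the lowest Ctrl library. Male CAIA replicate 2, at 1188 CPM of Ttr, had 2.91 CPM of Cd74, and female Ctrl replicate 1, at 1469 CPM of Ttr, had 4.67 CPM of Cd74. Male Ctrl replicate 3, at 2577 CPM of Ttr, had 3.55 CPM of Cd74. Single libraries such as these do not show how Cd74 and Ttr relate.

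Within groups the relation between the class II genes and Ttr was not established. Each library's deviation from its group mean was taken in log2(CPM + 0.5), over 11 libraries, and p-values came from an exact permutation test over all reorderings of libraries inside the groups, two-sided and adjusted over the 6 genes. For Cd74 Pearson's r was 0.59 (exact p = 0.236, adjusted p = 0.306) and Spearman's rho was 0.47 (exact p = 0.218, adjusted p = 0.435). Male CAIA replicates 1 and 2 held 48.1% and 44.4% of the within-group variation of Ttr, and without these 2 libraries r was −0.09 (exact p = 0.736, adjusted p = 0.883). The Cd74 value therefore rests on those libraries. Pearson's r was 0.53 for H2-Aa, 0.62 for H2-Ab1, −0.33 for H2-Eb1, −0.32 for H2-DMa and 0.46 for Ciita, with exact p-values of 0.0926 to 0.512 and adjusted p-values of 0.306 to 0.512. Without the same 2 libraries these were 0.42, 0.56, −0.36, −0.06 and −0.64 in that order, with adjusted p-values of 0.250 to 0.903.

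H2-Aa had the strongest rank relation with Ttr. Its Spearman's rho was 0.72 (exact p = 0.00926, adjusted p = 0.0556), which missed the threshold after adjustment, and 0.67 without the 2 libraries (exact p = 0.0694, adjusted p = 0.417). Spearman's rho of the other 4 genes lay between −0.23 and 0.54, with adjusted p-values of 0.435 to 0.808. No test of the correlation with Ttr over the 11 libraries together is given, because it would include the difference between treatments. When the log2 CPM of Ttr was added to the model as a covariate, the log2 fold change of Cd74 was −0.28 ± 0.47 (SE, adjusted p = 1.00), and no gene was called over both sexes; Ttr and treatment are so closely tied in these libraries that their parts in the Cd74 difference cannot be told apart.

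**Figure D3:**
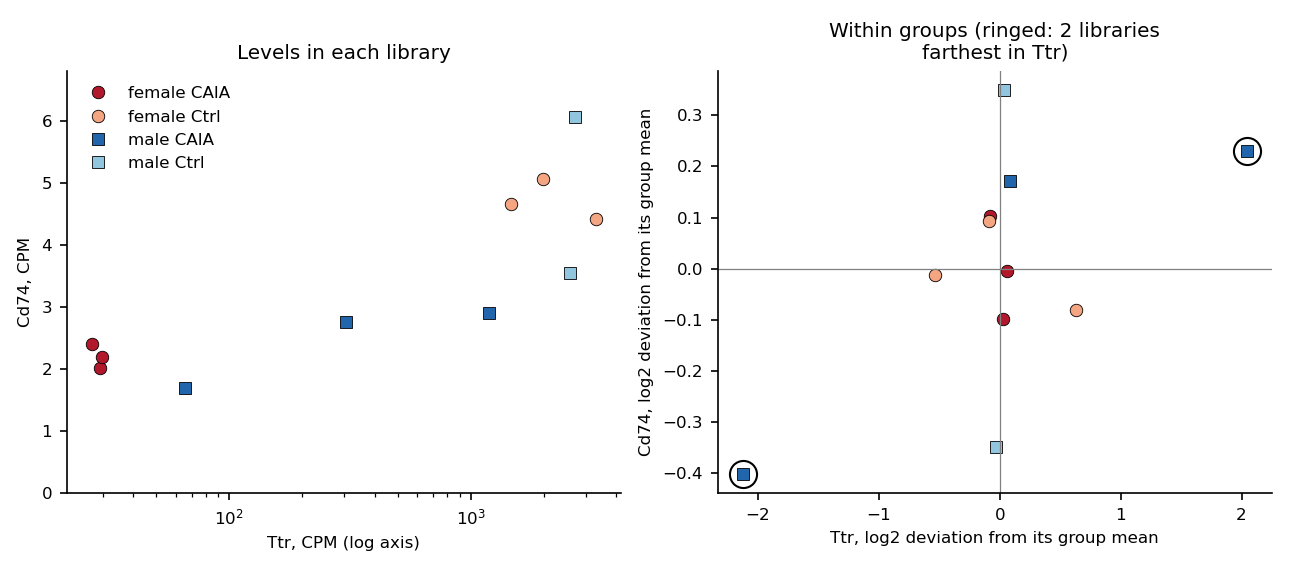
Left, Cd74 in CPM against Ttr in CPM (log axis) in the 11 libraries. Right, log2 deviation of each library from its group mean for the same genes, with rings around male CAIA replicates 1 and 2. The CAIA libraries have 1.70 to 2.91 CPM of Cd74 over a Ttr range of 27.0 to 1188 CPM, and the ringed libraries set the within-group slope.

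The 16 choroid plexus markers all had negative log2 fold changes, with a median of −2.74, and 8 were called lower. Their sum was 254 to 2155 CPM in CAIA and 2760 to 5715 CPM in Ctrl libraries, so choroid plexus RNA moved in the same direction as Cd74. The called markers with the lowest p were Prlr, Kcne2 and Car12. Of 9 meningeal fibroblast markers 2 were called lower, Igf2 at −1.35 ± 0.26 and Col1a1 at −0.37 ± 0.08 (SE). Of the 9, 7 had negative and 2 positive values, with Lum at −0.86 ± 0.23 and Col1a2 at −0.46 ± 0.12 (SE, adjusted p = 0.216 and 0.219). The summed level of the 9 was 165 to 210 CPM in CAIA and 162 to 227 CPM in Ctrl libraries. Pdgfra averaged 70.4 CPM in CAIA and 69.9 CPM in Ctrl libraries, and Fn1 47.4 and 49.5 CPM. These 2 genes made up most of the sum, so it says little about the others. Of 8 endothelial markers none was called, and Plvap, a gene of fenestrated vessels, had −0.35 ± 0.10 (SE, adjusted p = 0.302). The part of these tissues in the Cd74 result was not tested.

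No marker of macrophages or microglia was called. Of 12 border macrophage markers 10 were tested and none was called, 8 had positive values and the median was 0.39. The lowest p-values were those of Stab1 (0.29 ± 0.10, adjusted p = 0.445), Cd209f (1.201 ± 0.51, adjusted p = 0.721) and the mannose receptor gene Mrc1 (0.42 ± 0.18, adjusted p = 0.724). Their sum was 46.2 to 58.8 CPM in CAIA and 35.0 to 56.1 CPM in Ctrl libraries. All 14 microglia markers were tested, none was called and 12 were positive, with sums of 277 to 304 CPM in CAIA and 242 to 316 CPM in Ctrl libraries. With the log2 sum of the border macrophage markers as a covariate, chosen after the data were seen, Cd74 had a log2 fold change of −0.92 ± 0.21 (SE, adjusted p = 0.0964).

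No dendritic, B or T cell marker was called, and levels differed widely within these lists. Of 10 dendritic cell markers 6 were tested. Clec10a and Itgax had the lowest p, at 0.56 ± 0.40 and −0.29 ± 0.34 (SE, adjusted p = 0.902 and 0.953). Flt3 was the highest, at 15.4 CPM in CAIA and 14.6 CPM in Ctrl libraries on average, followed by Zbtb46 at 10.4 CPM in both, whereas Xcr1 and Ccr7, which mark cross-presenting and migratory dendritic cells, had 5 and 3 reads in CAIA and 3 and 3 in Ctrl libraries. Of 8 B cell markers 3 were tested. The immunoglobulin genes Ighm and Igkc averaged 3.72 and 3.52 CPM in CAIA and 3.51 and 3.84 CPM in Ctrl libraries, whereas Ms4a1 had 3 reads in CAIA and 5 in Ctrl libraries. Of 9 T cell markers 3 were tested. Cd4 had the lowest p, at −0.60 ± 0.55 (SE, adjusted p = 0.935). Trac averaged 1.85 CPM in CAIA and 1.66 CPM in Ctrl libraries, and Cd8b1 had no read in any library. Of 9 monocyte and neutrophil markers only Ly6c2 was tested, at 1.40 ± 0.49 (SE, adjusted p = 0.506), with 54 reads in CAIA and 16 in Ctrl libraries. Ccr2, which did not pass the filter, went the other way, with 23 reads in CAIA and 41 in Ctrl libraries. Ly6g had no read in any library. The sum of this list was 0.592 to 1.36 CPM in CAIA and 0.527 to 0.934 CPM in Ctrl libraries. The summed dendritic cell markers were 27.9 to 30.2 CPM in CAIA and 26.1 to 29.5 CPM in Ctrl libraries. Flt3 and Zbtb46 made up most of that sum, so it says little about the rarer markers or the number of dendritic cells.

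**Figure D4:**
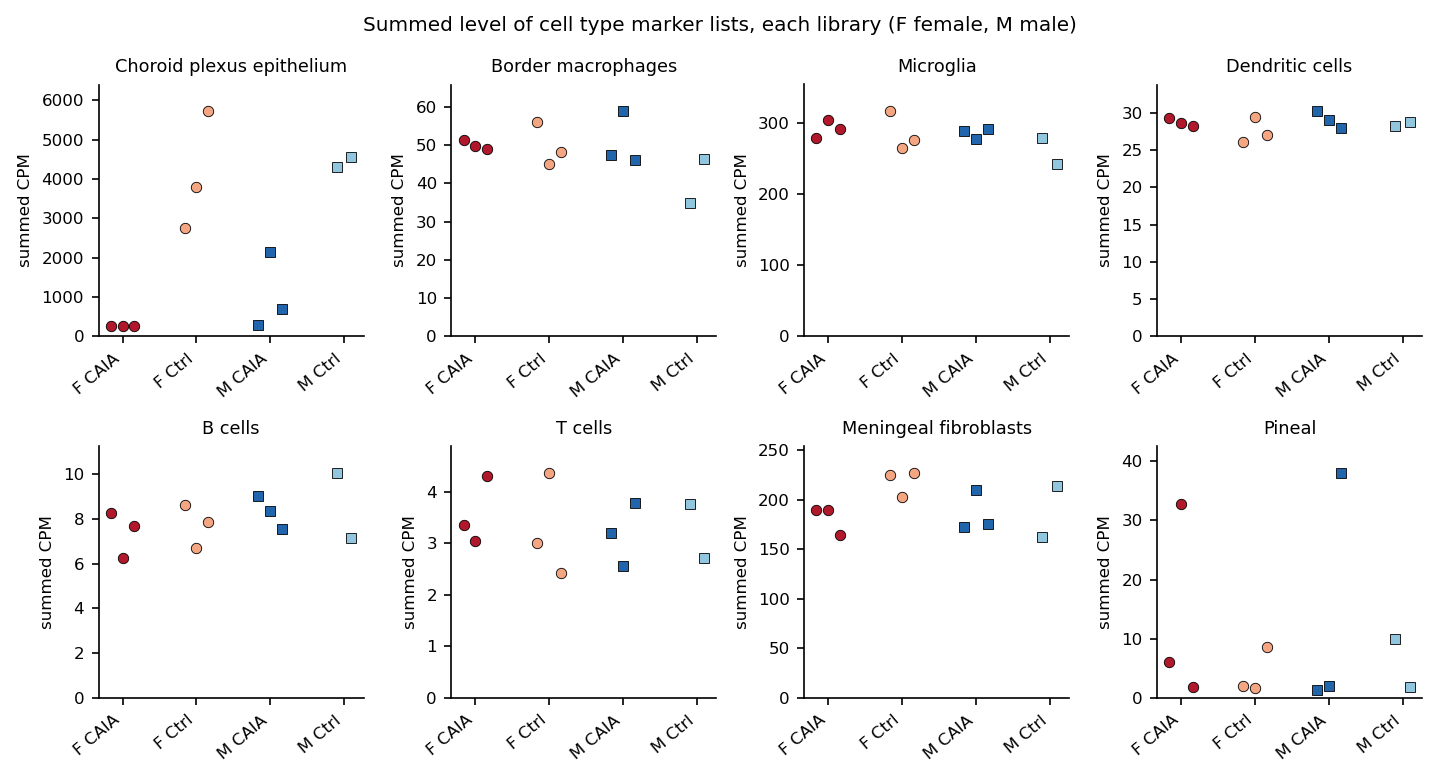
Summed CPM of 8 lists of cell type markers in each library, by sex and treatment (vertical axes from 0). Choroid plexus sums of the CAIA libraries all lie below those of the Ctrl libraries, border macrophage and microglia sums overlap, and pineal markers are high in female CAIA replicate 2 and male CAIA replicate 3.

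Pineal markers stood apart in 2 CAIA libraries, at 32.8 CPM in female CAIA replicate 2 and 38.0 CPM in male CAIA replicate 3, against at most 9.94 CPM in each of the other 9 libraries. These 2 libraries had 2.41 and 2.77 CPM of Cd74, within the range of the other CAIA libraries. Without them, an alternative chosen after the data were seen, Cd74 had a log2 fold change of −1.11 ± 0.21 (SE, adjusted p = 0.0915) and 1 gene in all was called over both sexes.

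No other class II pathway gene was called. Of 24 such genes 21 were tested over both sexes and 0 passed in either direction, with 12 positive and 9 negative values and a median of 0.02. Cathepsin S, the protease that trims the invariant chain in antigen-presenting cells, had 32.5 ± 2.29 CPM in CAIA (SD, n = 6) and 28.03 ± 3.14 CPM in Ctrl libraries (SD, n = 5), a log2 fold change for Ctss of 0.23 ± 0.08 (SE, adjusted p = 0.521). Cathepsin D, from Ctsd, had 206 ± 10.4 CPM in CAIA and 233 ± 23.1 CPM in Ctrl libraries, at −0.18 ± 0.07 (SE, adjusted p = 0.652). Of the factors that bind class II promoters, Creb1 had 0.16 ± 0.08 (adjusted p = 0.781), Rfxap 0.12 ± 0.06 (adjusted p = 0.839) and Nfyb 0.10 ± 0.08 (adjusted p = 0.924), in log2 fold change ± SE. H2-Eb2, a second E beta gene, had −0.48 ± 0.50 (SE, adjusted p = 0.941). The ubiquitin ligase gene March8, which acts on surface class II, had 0.05 ± 0.06 (SE, adjusted p = 0.952).

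No gene of the class I or interferon gamma pathway was called. All 16 class I pathway genes in the table were tested and none was called, with 7 positive and 9 negative values and a median of −0.04. The peptide transporter gene Tap2 had the lowest p, at −0.24 ± 0.10 (SE, adjusted p = 0.732), followed by Nlrc5, the class I coactivator, at 0.31 ± 0.18 and H2-T23 at −0.27 ± 0.16 (SE, adjusted p = 0.866 and 0.867). Of 16 genes of the interferon gamma pathway, which induces Ciita, 15 were tested and none was called, with 6 positive and 9 negative values and a median of −0.05. Igtp, an interferon-induced GTPase, had −0.37 ± 0.14 (adjusted p = 0.603), Jak1 0.14 ± 0.07 (adjusted p = 0.781) and Ifngr1 −0.13 ± 0.08 (adjusted p = 0.881). Ifng itself had 0 reads in CAIA and 2 in Ctrl libraries.

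**Figure D5:**
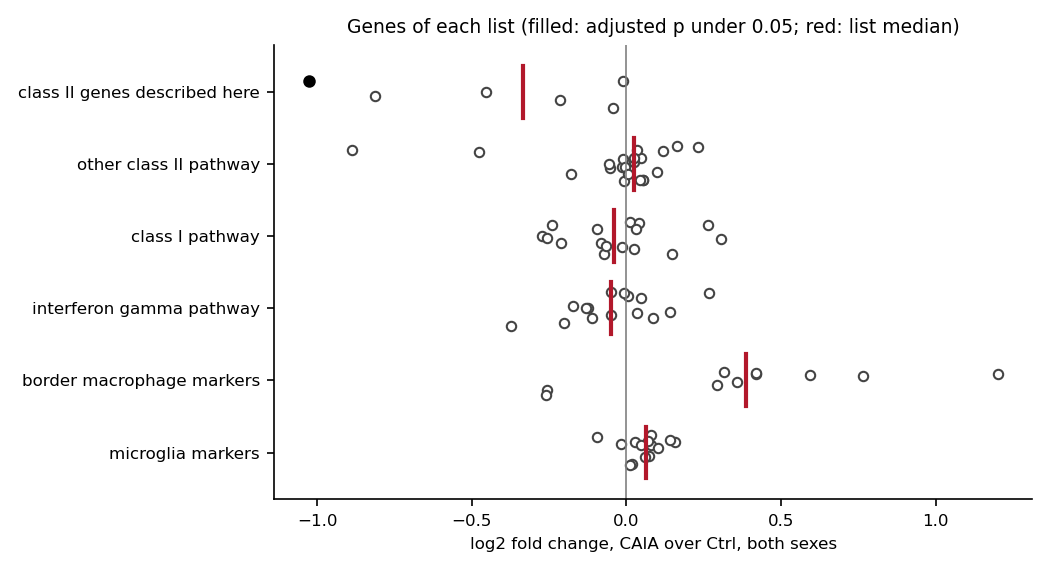
Log2 fold change of CAIA over Ctrl, both sexes (horizontal axis), for each tested gene of 6 lists. Red bars are list medians and the filled point is Cd74, which alone of these genes has an adjusted p under 0.05. Border macrophage markers have a median of 0.39, against −0.33 for the class II genes described here.

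Among 15548 other genes that averaged 1 CPM or more, the 5 whose level in log2(CPM + 0.5) was most like that of Cd74 over the 11 libraries were Pla2g5, Tcn2, Ltbr, Large2 and Vamp8, with Pearson's r of 0.946 to 0.964. This likeness includes the difference between treatments. Cd74 separated CAIA from Ctrl libraries, so picking the 5 genes most like it favoured genes lower in CAIA. Their fold changes and p-values below are therefore a description and no separate support. Pla2g5, a secreted phospholipase gene, had 1.36 CPM in CAIA and 3.56 CPM in Ctrl libraries on average, a log2 fold change of −1.41 ± 0.21 (SE, adjusted p = 0.00708). Large2, a glycosyltransferase gene, and Tcn2, which encodes the vitamin B12 carrier transcobalamin, were also called lower, at −1.61 ± 0.25 and −0.50 ± 0.10 (SE, adjusted p = 0.00837 and 0.0312). Ltbr, the lymphotoxin beta receptor gene, and the SNARE gene Vamp8 had −0.42 ± 0.09 and −0.66 ± 0.14 (SE, adjusted p = 0.0508 and 0.0555). By the same measure Ttr had 0.86, Plvap 0.79, Igf2 0.72, H2-DMa 0.11, Ciita 0.05 and Mrc1 −0.49. As deviations from the group means, r with Cd74 was 0.59 for Ttr, 0.65 for Plvap, −0.04 for Igf2 and −0.09 for Mrc1. Among the rare class II chains, r with Cd74 was 0.78 for H2-Eb1, 0.64 for H2-Aa and 0.35 for H2-Ab1.

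With the 4 group means removed, other genes came first: Selenop, Surf2, Gm28875, Hist1h1c and Spata3, with r of 0.943 to 0.987 over the same 11 libraries. Selenop encodes a secreted selenium carrier. It averaged 273 CPM in CAIA and 250 CPM in Ctrl libraries, a log2 fold change of 0.13 ± 0.07 (SE, adjusted p = 0.816), and none of the 5 was called. Within groups r with Cd74 was 0.71 for H2-Aa, 0.46 for H2-Eb1, 0.41 for H2-Ab1, 0.09 for H2-DMa and −0.04 for Ciita. These values describe 11 libraries with few reads for most of the class II chains, so weak ones carry no finding. Selenop and the 4 genes named with it were picked as the highest of 15548, so their high r can come from that choice alone.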

How the data were processed

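RNA from dissected tissue was sequenced in 11 libraries, and the authors deposited whole-number read counts per gene with no normalization. The submitters' processing notes name GRCm38 and the tools featureCounts 1.5.0-p3, HISAT2 2.0.5 and cutadapt 1.9.1. How the counting treated strand, and which annotation release it used, is not given in the sources used here. Groups came from the sample labels. The 7 genes, the gene lists and the tests were chosen with earlier results of these data known. Genes were filtered with filterByExpr by group, scaled by TMM and fitted as 4 group means in edgeR 4.0.16 (R 4.3.3; robust quasi-likelihood, 7 residual degrees of freedom), with Benjamini-Hochberg adjustment over 19619 genes. The contrasts were CAIA against Ctrl over both sexes with equal weight, in each sex, and the difference between the sexes. DESeq2 1.42.0, other scalings, no filter, covariates and the omission of each library were alternatives. The procedure was tested on simulated data. Standard errors are the log2 fold change over the square root of F. CPM used TMM-scaled library sizes of 25317306 to 29565006 total counts before scaling, and counting limits treat reads as independent. Between libraries of the same group, chi-square divided by its degrees of freedom was 6.59 to 27.7 over genes, so none was taken as a duplicate. Genes named from each list were among the up to 3 with the lowest p, or 8 for other class II pathway genes. Further named members (Zbtb46, Xcr1, Ccr7, Ms4a1, Cd8b1, Ccr2, Ly6g, Col1a2, Pdgfra, Fn1, Ifng, Cd80, Cd86, Cd40, H2-Oa, H2-Ob, H2-DMb2) were chosen after their values were seen. Coordinates and exon overlaps came from GENCODE on GRCm38, which may differ from the release the authors used, and 11 gene symbols stored as dates were restored by identifier.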

Additional observations from a re-analysis of the deposited data

Results flagged for a closer look

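In 14 sets of libraries, the 7 genes in 6 CAIA and in 5 Ctrl libraries, a library that stood far from the others of its treatment was sought with Dixon's test, which flags about 1 set in 20 by chance. Ciita in male CAIA replicate 2 was 3.38 CPM, and the next highest CAIA library had 2.01 CPM. H2-DMb1 in male Ctrl replicate 1 was 0.188 CPM, which is 5 reads, and the next highest Ctrl library had 0.0393 CPM, which is 1 read.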

How the results depend on the processing

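Cd74 kept a negative log2 fold change over both sexes under all 20 alternatives and its call under 13; leaving out single libraries gave −1.19 to −0.82 with adjusted p-values of 0.00984 to 0.0975. Numbers of genes called in the pooled, female and male comparisons and for the sex difference (117, 51, 0 and 0) were 470, 452, 423 and 316 with no filter on low counts and 222, 171, 71 and 2 in DESeq2. In edgeR, males and the sex difference had 1104 and 807 genes at an unadjusted p under 0.05, near the share of 0.05 that chance alone gives. Single-library omissions gave 43 to 180 in the pooled comparison, 0 to 104 for females and 0 to 142 for males. With Ttr as a covariate there were 0, 0 and 1 for the 3 CAIA comparisons, and without the 2 libraries rich in pineal markers 1 over both sexes and 0 in females. Whether the replicate numbers pair libraries was not settled. Deviations of same-numbered libraries correlated at −0.24 to 0.08 and those of differently numbered ones at −0.27 to 0.27. Deviations inside groups of 2 or 3 libraries sum to 0, so this check cannot exclude a pairing. With a replicate block the pooled, female and male counts were 126, 82 and 31, and Cd74 had −1.09 (adjusted p = 0.0632 in edgeR). The cause of these changes was not tested. Uncalled genes changed sign as follows. With Ttr as a covariate, H2-Aa had 0.72, 1.35 and 0.0903 and H2-Ab1 1.45, 2.03 and 0.87 in the pooled, female and male comparisons, Ciita 0.70 over both sexes and 0.55 in females, and H2-DMa −0.24 in females. With the border macrophage sum, H2-DMa had 0.0531 over both sexes and 0.0162 in males, H2-Eb1 0.0687 and Ciita −0.30 in males. Without the pineal-rich libraries H2-DMa had 0.0240 and Ciita 0.0749 over both sexes. Single-library omissions gave, over both sexes, −0.13 to 0.0566 for H2-DMa and −0.18 to 0.20 for Ciita; in females, −0.74 to 0.17 for H2-Ab1 and −0.0014 to 0.20 for H2-DMa; in males, −0.39 to 0.14 for H2-Ab1, −0.80 to 0.0203 for H2-Eb1 and −0.35 to 0.0393 for H2-DMa. Correlations with Ttr without the 2 libraries farthest in Ttr were −0.0909 for Cd74 and −0.64 for Ciita. The 65 to 100 reads a treatment for H2-Aa, H2-Ab1 and H2-Eb1 limit what could be seen.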

Other observations

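The genes of the DO heterodimer, which restrains DM in B cells and some dendritic cells, were read only sporadically. H2-Oa, its alpha chain, had 4 reads in the 6 CAIA libraries and 17 in the 5 Ctrl libraries, and H2-Ob, its beta chain, had 29 in CAIA and 22 in Ctrl libraries. H2-DMb2 had 30 reads in CAIA and 23 in Ctrl libraries, so the 2 DM beta genes together stayed far below the 1866 reads of H2-DMa in CAIA and 1558 in Ctrl libraries. Those of H2-DMa may include reads from the bases shared with Brd2, which was not tested. None of H2-Oa, H2-Ob and H2-DMb2 passed the filter on low counts. The costimulation genes Cd80, Cd86 and Cd40, which antigen-presenting cells use beside class II, were tested, with log2 fold changes of −0.01 ± 0.26, 0.05 ± 0.27 and −0.01 ± 0.41 (SE, adjusted p = 0.999, 0.991 and 0.999).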
